A study of Mus musculus with 2 samples.

Results

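Known one-exon transcripts are annotated RNAs that cross no splice junction. Members were the transcript models of annotated mouse genes that the deposited tables class as Known, that have 1 exon, and that had at least 1 read in each of the 2 libraries. The members were thus chosen by their read counts. The rule gave 924 transcripts of 918 genes, out of 13057 Known transcripts with a read in each library. Of the members, 671 belonged to 665 genes for which the annotation (GENCODE M21) holds only 1-exon transcripts, and 253 were one-exon forms of genes that also have spliced transcripts. Their presence in both libraries is therefore a description and not a result.

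The RNA came from adrenal glands of female B6CASTF1/J mice, first-generation hybrids of the C57BL/6J and CAST/EiJ strains aged 36 days, and was sequenced as long reads. Both libraries belong to 1 group with no treatment or genotype contrast, and are numbered replicates 1 and 2. One label field gives both the same animal number and another gives different numbers, so that the libraries may share an animal. The p-values below set reads of single libraries against counting error and hold no spread between animals. The labels give 1 µg as the RNA input of replicate 1. An input for replicate 2 was not used here.

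Genes without introns include many transcription factors of the immediate early response, replication-dependent histones and several heat shock proteins, whose messages need no splicing. Processed pseudogenes are copies of spliced messages that were reverse transcribed and inserted elsewhere in the genome, so that they lack the introns of the gene they came from. A retained-intron form is an RNA of a spliced gene in which an intron was kept, and many such RNAs stay in the nucleus or are degraded. The adrenal gland makes steroid hormones in its cortex and catecholamines in its medulla.

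Replicate 1 held 1223776 reads and replicate 2 held 453761, of which 1144572 and 414588 fell on annotated genes, a 2.76-fold difference in depth. Levels are given as CPM, reads per 1000000 reads of annotated genes, and 1 read equals 0.874 CPM in replicate 1 and 2.41 CPM in replicate 2. All 5 cortex markers were read in both libraries, at a summed 63143 and 81614 CPM. Cyp11a1, which starts steroid synthesis, carried the higher sum (20811 and 41366 CPM), while Star, Cyp21a1 and Cyp11b1 were lower in replicate 2. All 5 medulla markers were also read in both, at 9944 and 6739 CPM. Of 5 skeletal muscle markers, all had reads in replicate 1 (875 CPM in sum), while in replicate 2 Acta1 and Ckm had 1 read each (4.82 CPM in sum) and Atp2a1, Tnnc2 and Tcap had 0. The 5 adipocyte markers summed to 6180 and 9532 CPM, with the widest differences in Fabp4 (771 and 2914 CPM) and Cidea (793 and 1606 CPM). Adipoq, Cfd and Car3 differed less. Coordinates refer to mm10, and intervals cover counting error only.

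The sequences of 3 pairs show bases that separate abundant pseudogene members from a spliced gene. Each window holds 60 bases, with positions counted from 1 at its 5′ end and differing bases in capitals. It is the window without gaps, inside the coding sequence of the spliced gene, that held the most mismatches. The windows thus do not show the typical difference of a pair. Pairs without a difference were left out, such as Gm10123 with Ppia and Gm14303 with Rps29 (0 mismatches each). Gm15459, a copy of Hspa8 on chr5:5783413-5783472 (minus strand), differs at G31A. Rps19-ps6, a copy of Rps19 on chr12:110898460-110898519 (plus strand), differs at G23A, G26A and C44T, and Gm12033, a copy of Gapdh on chr11:20335481-20335540 (minus strand), at T31C. In each token the base of the spliced gene stands first.
Hspa8: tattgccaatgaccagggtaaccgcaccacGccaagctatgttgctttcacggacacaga
Gm15459: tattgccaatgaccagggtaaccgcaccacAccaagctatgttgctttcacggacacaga
Rps19: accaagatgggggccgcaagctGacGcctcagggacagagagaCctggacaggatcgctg
Rps19-ps6: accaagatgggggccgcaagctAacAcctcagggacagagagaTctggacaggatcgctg
Gapdh: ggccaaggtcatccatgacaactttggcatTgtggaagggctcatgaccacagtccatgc
Gm12033: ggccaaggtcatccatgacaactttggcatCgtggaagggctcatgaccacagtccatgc

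The splice sites of introns kept in the retained-intron forms of Atf4 and Pgp are shown because these were the most abundant members of that class. Each line runs across an exon and intron border, with the first or last 2 bases of the intron in capitals. The first Atf4 intron lies at chr15:80255686-80256206 and the second at chr15:80256522-80256633, both on the plus strand. The Pgp intron lies at chr17:24471150-24471241 on the plus strand.
Atf4 intron 1 donor: aagccatggcGTgagtatgggg
Atf4 intron 1 acceptor: gtccccatccAGgctcttcacg
Atf4 intron 2 donor: accggcaaggGTgagtaggacg
Atf4 intron 2 acceptor: ttcttttcccAGaggatgcctt
Pgp donor: ttcattgcggGTccgtgcacct
Pgp acceptor: ctcgctctgcAGgtaccggctg

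Members held 4.67% of the annotated-gene reads of the first library (4.63% to 4.71%, Wilson interval at 95%) and 4.52% in the second (4.46% to 4.58%), a mean of 4.59% ± 0.105 (SD, n = 2). Genes with only 1-exon transcripts accounted for 3.54% and 3.82% of annotated-gene reads. One-exon forms of spliced genes accounted for 1.13% and 0.705%, or 0.748% and 0.696% without Malat1. Of member reads, 75.9% and 84.4% therefore lay in genes with only 1-exon transcripts. Reads were concentrated, with 33.5% and 25.4% of member reads on the 10 most abundant members. At the other end 409 members had fewer than 10 reads in total.

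Pseudogenes made the largest class, with 287 members and 1.66% and 1.95% of annotated-gene reads. The 215 intronless coding transcripts held 1.52% and 1.26%, and the 106 transcripts of long noncoding genes 0.145% and 0.128%. The 46 small RNA genes held 0.127% and 0.0605%, and the 17 genes of the mitochondrial genome 0.0851% and 0.413%. Among spliced genes, 66 coding forms held 0.478% and 0.398%, 152 retained-intron forms 0.123% and 0.143%, and 18 forms of noncoding genes 0.440% and 0.0545%. Forms of pseudogenes that also have spliced transcripts (11 members) held 0.0838% and 0.106%, and the 6 other forms of coding genes held 23 and 12 reads.

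**Figure D1:**
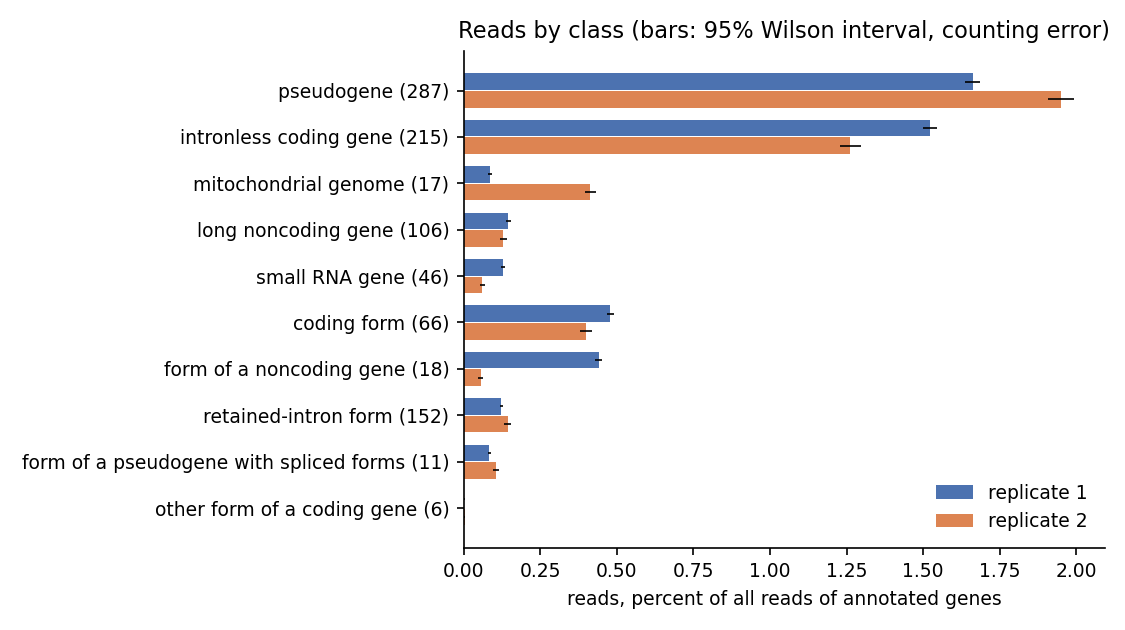
Horizontal bars give the reads of each class of known one-exon transcripts as a percent of all reads of annotated genes, in replicate 1 (blue) and replicate 2 (orange), with the number of members in parentheses and 95% Wilson intervals as black lines. Pseudogenes and intronless coding genes hold most reads in both libraries, the mitochondrial class is larger in replicate 2 (0.413% against 0.0851%) and the forms of noncoding genes are larger in replicate 1 (0.440% against 0.0545%).

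The threshold of 1 read in each library lies among sparse transcripts. Just inside it, 79 members had 1 read in each library. Just outside it, 542 one-exon Known transcripts had 1 read in replicate 1 and 0 in replicate 2, and 229 had 0 and 1. In all, 901 were read in replicate 1 alone and 261 in replicate 2 alone, with at most 71 and 13 reads each. At 5 reads in each library, 382 members were left, and they held 4.32% of annotated-gene reads on average.

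Member lengths had a median of 1217.5 bases, against 2208 bases for the 12133 known spliced transcripts with a read in each library. Medians were 538 bases for pseudogenes, 103 for small RNA genes, 2104 for intronless coding transcripts and 2359 for retained-intron forms. The deposited length equalled the annotated length in all 924 members, so it describes the annotation and not the reads. The longest member, the imprinted antisense RNA Kcnq1ot1, is annotated at 93092 bases and had 1 read in each library.

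A two-sided exact binomial test set the reads of each transcript in replicate 2 against the share expected from scaled library sizes, with p-values adjusted by Benjamini-Hochberg over all Known transcripts with at least 10 reads in total. Of all 8615 such transcripts 13.8% differed at an adjusted p under 0.05, and of the 7916 spliced ones with a read in each library 13.0% (6.32% higher and 6.68% lower in replicate 2). Of the 515 members tested, 104 (20.2%) differed, 66 higher (12.8%) and 38 lower (7.38%) in replicate 2. The shares of all tested transcripts in each direction were 6.60% and 7.24%. The median log2 ratio of replicate 2 to replicate 1 was 0.09 for tested members and -0.09 for all tested transcripts. Over the 515 members, log2(CPM + 1) in the libraries had a Pearson correlation of 0.788 and a Spearman correlation of 0.771, with members sharing their library and its depth. Scaling by TMM over all genes, chosen after seeing the data, moved the median log2 ratio of all tested transcripts from -0.09 to -0.20, and 101 members then differed, 59 higher and 42 lower.

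**Figure D2:**
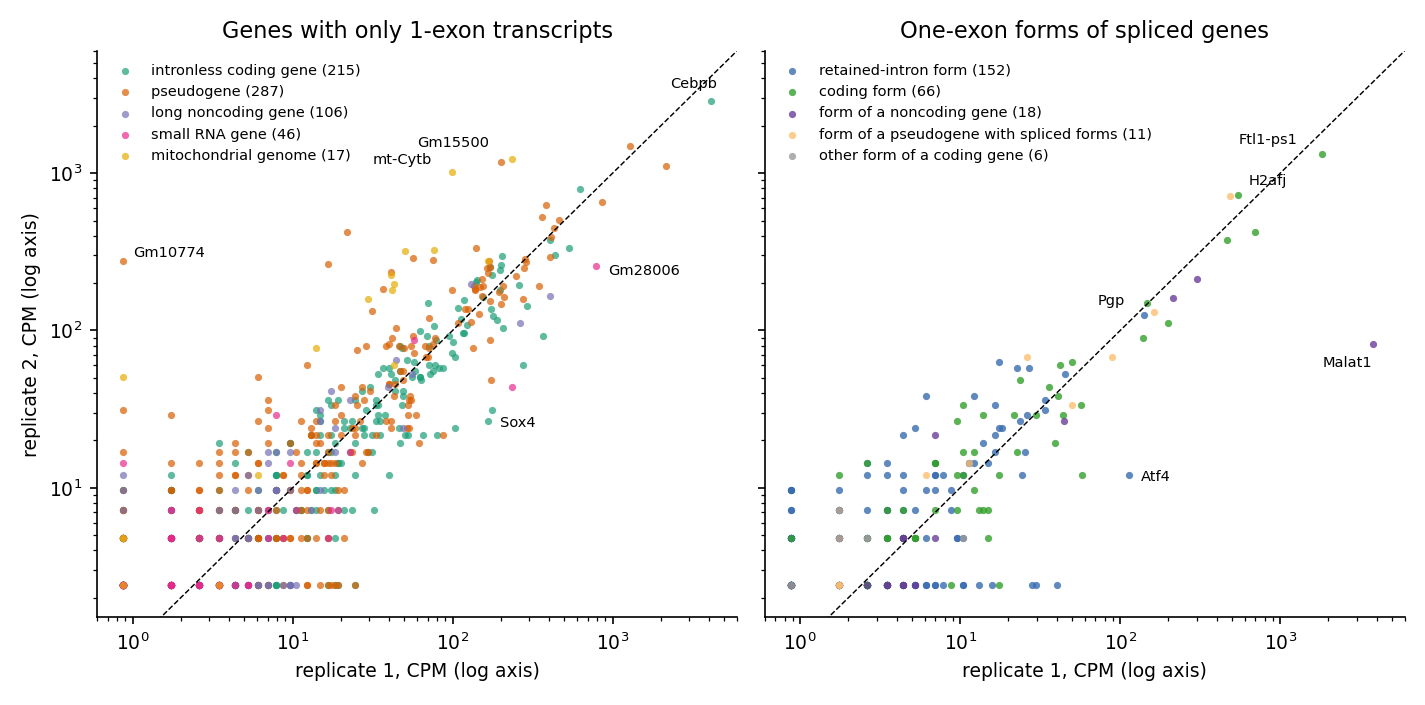
Each point is 1 member, at its level in replicate 1 (horizontal) and replicate 2 (vertical) in CPM on log axes, with genes that have only 1-exon transcripts on the left and one-exon forms of spliced genes on the right. The dashed line marks equal levels. Cebpb lies near the line at the top, Malat1 lies far below it at 3784 and 82.0 CPM, and Gm10774 far above it at 0.874 and 277 CPM.

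Among the intronless coding genes 165 members were tested, of which 13.3% differed, beside 13.8% of all tested transcripts. In replicate 2, 7 were higher (4.24%) and 15 lower (9.09%). Transcription factors led by level. Cebpb (chr2:167688915-167690418), a leucine zipper factor of the C/EBP family that acts in inflammation and metabolism, was the most abundant member with 4748 and 1195 reads, or 4148 and 2882 CPM (3515 ± 895, n = 2). It was lower in replicate 2, by 0.45 on the log2 scale (exact binomial test, adjusted p = 2.40e-21). Jund (chr8:70698949-70700616), a subunit of the AP-1 factor, had 625 and 791 CPM, and was higher in replicate 2 with a log2 ratio of 0.41 (exact binomial test, adjusted p = 5.22e-04). Junb, another subunit whose one-exon transcript comes from a gene that also has spliced models, had 463 and 379 CPM and did not pass the test. Jun (chr4:95049034-95052222), the founding member of that family, had 418 reads in replicate 1 and 38 in replicate 2, or 365 and 91.7 CPM. Its log2 ratio was -1.91 (exact binomial test, adjusted p = 6.92e-19). The 3 subunits thus did not move alike, with Jun lower and Jund higher in replicate 2.

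Of 42 listed transcription factor and immediate early genes, some of which are intronless, 18 had a member and 15 members were tested. Beside the 13.8% of all tested transcripts that differed, 4 were lower in replicate 2 (Cebpb, Jun, Sox4 and Ier2), 1 was higher (Jund) and 10 did not pass, with a median log2 ratio of -0.50. Sox4 (chr13:28948919-28953713), a factor of developing and progenitor cells, had 190 and 11 reads, or 166 and 26.5 CPM. Its log2 ratio was -2.53 (exact binomial test, adjusted p = 5.36e-12). Cebpa, a relative of Cebpb, had 138 and 89.2 CPM and Cebpd 23.6 and 48.2 CPM, and neither passed.

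Rhob (chr12:8497661-8500009), a small GTPase made quickly after stimulation, had 201 and 13 reads, or 176 and 31.4 CPM. Its log2 ratio was -2.38 (exact binomial test, adjusted p = 8.97e-12). In a list of 35 small GTPase and signal genes 4 had a member and 2 were tested. Rhob was the 1 of the 2 that differed, beside 13.8% of all tested transcripts. Muscle marker RNA was also far lower in replicate 2 (875 against 4.82 CPM), and its part in these ratios was not tested.

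Of 10 listed heat shock and chaperone genes 5 had a member, and all 5 were tested. None passed, with a median log2 ratio of 0.21, beside 13.8% of all tested transcripts, so that a count this small shows nothing particular to the list. At an unadjusted p under 0.05, 0 of the 5 passed the exact binomial test. Hspa1b (chr17:34956436-34959238), an inducible Hsp70, had 140 and 45 reads, or 122 and 109 CPM. Its neighbour Hspa1a (chr17:34969190-34972156), which encodes a near-identical protein, had 46 and 24 reads, or 40.2 and 57.9 CPM. Hspa2, the Hsp70 best known from testis, had 49.8 and 62.7 CPM.

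Of 73 listed histone genes, 12 had a member and 10 were tested. Beside 13.8% of all tested transcripts that differed, 1 of the 10 did, higher in replicate 2. That gene, Hist2h2aa1 (chr3:96245497-96246082), had 171 and 253 CPM (log2 ratio 0.63, exact binomial test, adjusted p = 0.00484). Its copy Hist2h2aa2, which lies near it on the opposite strand at chr3:96239749-96240276, had 177 and 224 CPM and did not pass. H1f0, the linker histone of cells that have stopped dividing, had 156 and 164 CPM. The list summed to 796 and 936 CPM.

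Members from the lists of receptor and membrane protein genes were sparse. Of these members, F2rl3-202, P2ry1-203 and Amigo2-202 are one-exon forms of genes that also have spliced transcripts. Of 49 listed G protein-coupled receptor genes, 8 had a member and 4 were tested. Of the 4, 0 passed the exact binomial test, beside 13.8% of all tested transcripts, and 2 had an unadjusted p under 0.05. The Wnt receptor genes Fzd8 and Fzd1 had 27 and 11 and 16 and 7 reads. Of 38 channel and membrane genes 5 had a member and 2 were tested. Beside the same 13.8%, 0 of the 2 passed, also at an unadjusted p under 0.05 (exact binomial test). The channel and membrane members were led by Cldn5, the tight-junction claudin of endothelial cells, at 77.8 and 60.3 CPM.

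Other abundant intronless genes that the lists do not hold were chosen after their values were seen. Sephs2, which makes the selenium donor for selenocysteine, had 407 and 374 CPM, and Pcbp1, an RNA-binding protein that also carries iron, 439 and 302 CPM. Ndn, an imprinted gene expressed from the paternal copy, had 261 and 195 CPM. Purb, a DNA-binding protein with an annotated transcript of 8319 bases, had 274 and 60.3 CPM, or 314 and 25 reads, and was lower in replicate 2 (log2 ratio -2.10, exact binomial test, adjusted p = 8.03e-16).

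The ratio between the libraries moved with annotated length. Among tested intronless coding transcripts the median log2 ratio was 0.44 under 1000 bases (28 transcripts), -0.18 from 1000 to 2000 bases (50), -0.31 from 2000 to 3000 bases (40) and -0.32 above (47). Known spliced transcripts with a read in each library had medians of 0.36, -0.11, -0.28 and -0.15 in the same classes. Short transcripts were thus higher in replicate 2 in both sets. The 11 intronless transcripts under 1000 bases that had no near-identical copy elsewhere had a median of 0.30.

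Of the 287 pseudogene members, 277 aligned over at least 80% of their length to a spliced protein-coding gene, with a median identity of 99.5%. The identity was at least 98% in 244 and 100% in 57. Cytosolic ribosomal protein genes were the closest match of 124. The spliced gene had more reads than its copy in 255 pairs and fewer in 20. No source used here states how reads that align to near-identical places were assigned, so levels of these members are uncertain.

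Annotated one-exon pseudogenes without reads were less similar to spliced genes. Of 10213 read in neither library, 7638 matched a spliced coding gene over at least 80% of their length, with a median identity of 91.4%, and 9.68% of all 10213 reached 98%. Among the 261 read in 1 library, 50.2% reached 98%, and among the 287 members 85.0% did. Where the matching gene had at least 100 reads, the median identities were 90.5%, 98.3% and 99.5% in this order. Reads chose these 3 sets, and the identities are a description.

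**Figure D3:**
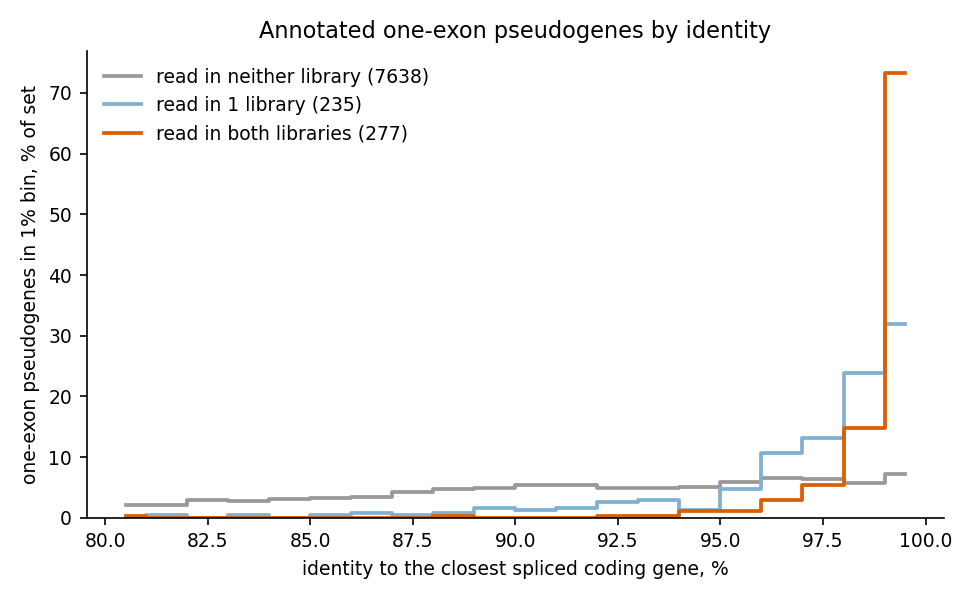
Lines give, in bins of 1 percentage point, the percent of annotated one-exon pseudogenes by their identity to the closest spliced coding gene, for those read in both libraries (orange), in 1 library (blue) and in neither (grey), among those aligned over at least 80% of their length. Identities below 80% are not drawn. Of the pseudogenes read in both libraries 73.3% fall in the last bin, against 31.9% and 7.16% of the other sets.

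Gm15459 (chr5:5781615-5783555), the copy of the Hspa8 chaperone gene shown above, was the most abundant pseudogene member. It had 2471 and 463 reads beside 2408 and 516 for Hspa8, and thus 50.6% and 47.3% of the reads of the pair. The copy matched Hspa8 at 99.7% over its whole length of 1941 bases, with 5 mismatches. The copy was lower in replicate 2, with 2159 and 1117 CPM and a log2 ratio of -0.88 (exact binomial test, adjusted p = 3.53e-35). The log2 ratio of Hspa8 over all its transcripts was -0.69.

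Gm10123 (chr9:96895658-96896147) matched Ppia, which encodes the proline isomerase cyclophilin A, at 100% over 490 bases. It had 1461 and 613 reads beside 1549 and 673 for Ppia. Gm14303 (chr2:172509521-172509691) matched the ribosomal protein gene Rps29 at 100% over 171 bases and had 979 and 273 reads beside 567 and 267. Gm12338, a full match of the respiratory chain gene Cox7c over 192 bases, had 413 and 217 reads beside 841 and 467. Rps19-ps6, with 5 mismatches over 438 bases, had 442 and 260 reads beside 427 and 239 for Rps19. In Ppia, Rps19 and Hspa8, copy and spliced gene therefore held nearly equal reads in both libraries.

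Gapdh, the glycolytic enzyme gene often used as a reference, had fewer reads than its copies. The spliced gene had 28 and 9 reads, of which 4 and 6 were on its own one-exon retained-intron form, while 13 one-exon members that match it at 97.9% to 100% had 1136 and 379 reads together, 97.6% and 97.7% of the sum. The most abundant were Gm12033 with 396 and 80 reads, Gm5559 with 315 and 66, and Gm12671 with 161 and 139. One of the 13, Gapdh-ps15, lies on chromosome Y (chrY:38619783-38620784) and had 2 and 6 reads, although both libraries are labelled female. It matched Gapdh at 99.5% and another annotated copy at 99.9%.

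Rpl21 and Rpl10, both of the large ribosomal subunit, also had fewer reads than their copies. Rpl21 had 22 and 16 reads and its 4 one-exon copies 581 and 272. Rpl10 had 35 and 22 reads and its 3 copies 615 and 141, of which Rpl10-ps3, annotated as a coding gene, had 612 and 138. Rpl35a had 158 and 68 reads and its 7 copies 836 and 331. For Rpl3 the order was the opposite, with 1011 and 321 reads on the spliced gene and 520 and 192 on its 3 copies.

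Of 190 pseudogene members tested, 35 were higher in replicate 2, 10 were lower and 145 did not pass. The shares were 18.4% and 5.26%, beside 6.60% and 7.24% of all tested transcripts. Pseudogene members had a median length of 538 bases. Among known spliced transcripts under 1000 bases with a read in each library, 190 of 1077 tested were higher and 14 lower. The part of length in the pseudogene shares was not tested. Over the 184 pairs in which the pseudogene and its spliced match each had at least 10 reads, the median log2 ratio was 0.18 for the pseudogenes and 0.19 for the matches. The ratios of a pair lay within 1 log2 unit of one another in 141 pairs. The Pearson correlation of the ratios was 0.435 and the Spearman correlation 0.503 over these pairs, which share libraries, depth and in part the same 135 spliced genes.

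The ratios of the other pairs differed by more than 1 log2 unit, with that of the copy above its match in 24 pairs and below it in 19. Of the 19, Gm5526 had 28 and 1 reads beside 719 and 369 for its match Myl6, a light chain of myosin, and Gm11196 had 21 and 1 beside 86 and 37 for Pin4. These were chosen after their values were seen, and the 3 pairs that follow are of the 24. Gm10774 (chr2:126709354-126709557), a match of the RNA polymerase subunit gene Polr2l at 99.5%, had 1 read in replicate 1 and 115 in replicate 2, while Polr2l had 510 and 356. Its log2 ratio was 7.27 (exact binomial test, adjusted p = 7.05e-64). Gm14539 (chrX:20581141-20581314), a full match of the ATP synthase subunit gene Usmg5, had 25 and 176 reads beside 519 and 337. Gm10231 (chr17:5816200-5816640), a full match of Atp5g2, had 19 and 110 reads beside 178 and 149. In these 3 pairs the copy differed between the libraries by 2.71 to 6.25 log2 units more than the spliced gene did.

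Gm15500 (chr7:114705270-114706163), a full match of Rpl5 over 894 bases, had 229 and 491 reads, or 200 and 1184 CPM, with a log2 ratio of 2.63 (exact binomial test, adjusted p = 4.55e-123). Rpl5 itself had 353 and 624 reads and a log2 ratio of 2.35, close to that of its copy. The copy held 39.3% and 44.0% of the reads of the pair.

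Counting all classes, 324 members had another annotated transcript at 98% identity or more over at least 80% of their length. Without them, a setting chosen after seeing the data, 600 members were left and held 2.47% and 2.00% of annotated-gene reads, in place of 4.67% and 4.52%. Of the 223 tested members with such a copy 25.6% differed between the libraries (44 higher and 13 lower in replicate 2). Of the 292 without a copy 16.1% differed (22 higher and 25 lower), beside 13.8% of all transcripts.

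Mitochondrial transcripts, which are made as long polycistronic RNAs and cut apart, were all but 2 of those tested higher in replicate 2. Of 37 mitochondrial genes 17 had a member and 13 were tested, with 11 higher (84.6%), none lower and a median log2 ratio of 2.45. In all tested transcripts 6.60% were higher. Of the 17 members, 7 matched another annotated transcript over at least 80% of their length, 4 of these at 98% identity or more. How reads of such members were assigned is not stated, so their levels are uncertain. Mt-Co1, a core subunit of respiratory complex IV, had 268 and 507 reads, or 234 and 1223 CPM (log2 ratio 2.45, exact binomial test, adjusted p = 3.66e-116). Mt-Cytb of complex III had 113 and 419 reads, or 98.7 and 1011 CPM, with a log2 ratio of 3.41. The ribosomal RNA mt-Rnr2 moved less, from 166 to 275 CPM, and mt-Rnr1 had 42.8 and 60.3 CPM and did not pass.

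The tested subunits of complex I and of the ATP synthase were also higher in replicate 2. Mt-Nd2 had 76.0 and 323 CPM, mt-Nd1 50.7 and 321 CPM, and mt-Atp6 41.1 and 227 CPM. The complex I subunits mt-Nd6 (4 and 1 reads) and mt-Nd3 (1 and 2 reads) were too sparse to test. Without the mitochondrial genome, members held 4.36% of the remaining reads on average.

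Malat1 (chr19:5795690-5802672), a nuclear RNA of 6983 bases that is retained in speckles, was far lower in replicate 2. It had 4331 reads in replicate 1 and 34 in replicate 2, or 3784 and 82.0 CPM, 43.4-fold lower in scaled CPM with the pseudocount of 1 CPM. This 1 transcript held 4331 of the 5034 reads of forms of noncoding genes in replicate 1. Neat1 (chr19:5824708-5845478), the RNA that builds paraspeckles and neighbour of Malat1, had 347 and 88 reads, or 303 and 212 CPM, and did not pass (log2 ratio -0.44, exact binomial test, adjusted p = 0.0647). It did pass under the other scalings, at 0.0124 to 0.0216 in the exact binomial test. Of the 6 tested forms of noncoding genes, Malat1 was the 1 that differed (16.7%), beside 13.8% of all tested transcripts. Malat1 and Neat1 belong to a list of 16 nuclear and housekeeping noncoding RNAs, of which 7 had a member and the other 5 were too sparse to test.

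Small RNA genes often lay inside longer ones. Of the 46, 28 overlapped an exon of another annotated gene on the same strand, and which of the 2 genes a read came from cannot be told apart. Of the 13 tested, 23.1% differed, 1 higher (7.69%) and 2 lower (15.4%) in replicate 2, beside 13.8% of all tested transcripts. Gm28006 (chr19:5844916-5845037), annotated as an RNA of 122 bases inside Neat1, had 902 and 106 reads, more than the 380 and 93 of all Neat1 models. Its log2 ratio was -1.55 (exact binomial test, adjusted p = 1.04e-30). With Gm27533 and Gm27505, which also lie in Neat1, these members had 944 and 112 reads.

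Snord13, a small nucleolar RNA that guides acetylation of ribosomal RNA, overlapped no exon of another gene on its strand. It had 268 and 18 reads, or 234 and 43.4 CPM, a log2 ratio of -2.33 (exact binomial test, adjusted p = 2.04e-15).

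Genes of microRNAs gave 24 members, of which 13 were in the RefSeq table (GRCm38.p6) and 18 overlapped an exon of another gene on the same strand. Gm26377, which lies in an exon of the elongation factor gene Eef1a1, had 66 and 36 reads beside 1414 and 330 for Eef1a1. The mature sequence of miR-703 (chr5:98475616-98475636, minus strand) was found in annotated transcripts of Eef1a1, Gm26377, Gm26384 and Gm23061, and is shown with its seed, bases 2 to 8, in capitals. Mir703 itself had 1 and 6 reads. A long read counted at such a gene is not a measure of the mature microRNA.
mmu-miR-703: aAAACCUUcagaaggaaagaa

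Genes of 1 exon that the annotation classes as long noncoding were led by 2 loci of chromosome 17. The class held 1665 and 531 reads in all. Gm42418 (chr17:39846958-39848788) had 463 and 69 reads, or 404 and 166 CPM, and AY036118, on the opposite strand inside it (chr17:39847113-39848035), 302 and 46 reads. No source used here states whether counting used strand, so that these overlapping genes may share reads. Both were lower in replicate 2, with log2 ratios of -1.21 and -1.17 (exact binomial test, adjusted p = 6.51e-11 and 6.39e-07). Gm26917, which precedes Gm42418 at chr17:39843013-39846341, had 245 and 67 reads. Of the 34 long noncoding members tested, 8.82% differed, 1 higher (2.94%) and 2 lower (5.88%), beside 13.8% of all tested transcripts. The 2 lower ones were Gm42418 and AY036118, so the lower calls of the class rest on this 1 place. Which RNA the reads counted there came from was not tested.

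Coding forms of spliced genes varied widely in their share of the gene's reads. Of the 38 tested, 15.8% differed, 2 higher (5.26%) and 4 lower (10.5%) in replicate 2. Forms of pseudogenes with spliced transcripts differed in 2 of 7 (28.6%), both higher. These shares stand beside 13.8% of all tested transcripts. Of the 66 coding forms, 21 had at least 20 reads of the gene in each library, and their median share of the gene's reads was 38.3%. In 10 of the 21 the share was above 50%, and in 8 it was under 10%. H2afj (chr6:136808244-136810074), a histone H2A variant, had 624 and 300 reads, 99.4% and 99.3% of its gene. Ftl1-ps1 (chr13:74406409-74407346), a copy of the ferritin light chain gene Ftl1, had 2097 and 548 reads beside 2226 and 708 for Ftl1. Eno1b, a copy of the enolase gene Eno1, had 791 and 174 reads beside 1325 and 374. Atxn7l3b, a coding gene related to a subunit of a deubiquitinating complex, had 169 and 62 reads at near-equal levels of 148 and 149.5 CPM.

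Retained-intron forms were a minor product. In the 84 with at least 20 reads of the gene in each library, the share averaged over both libraries had a median of 4.45% and a range of 0.167% to 39.4%, and 63 of the 84 held under 10%. Known spliced transcripts under the same minimum had a median share of 43.5%. Pgp-202 of the phosphoglycolate phosphatase gene had 161 and 52 reads, 22.2% and 24.3% of the gene, and was the most abundant. Its 92-base intron, shown above, was spliced in 716 Known reads. Of the 48 retained-intron forms tested, 22.9% differed in reads, 7 higher (14.6%) and 4 lower (8.33%) in replicate 2. The shares of all tested transcripts were 13.8%, 6.60% and 7.24%.

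Of the 152 retained-intron forms, 76 held at least 1 whole intron of a spliced transcript, 75 reached into an intron without holding it, and 1 lay within an exon. Of the 76, 42 held 1 intron and 34 held more, up to 10. The 160 introns had a median length of 250.5 bases, against 1185 for the 94492 introns of known spliced transcripts with a read in each library. Only introns whole within a form were counted, so introns longer than the form were left out. Of overlapping introns 1 was kept. The other set had no such limit and counted an intron once per transcript, so the medians do not compare like sets. GT and AG bounded 159 of the 160, as in the sequences above, and GC and AG bounded 1. Known reads spliced 135 of the 160. The forms that held whole introns had a median share of their gene of 5.87%, and those that reached into one 3.27%.

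**Figure D4:**
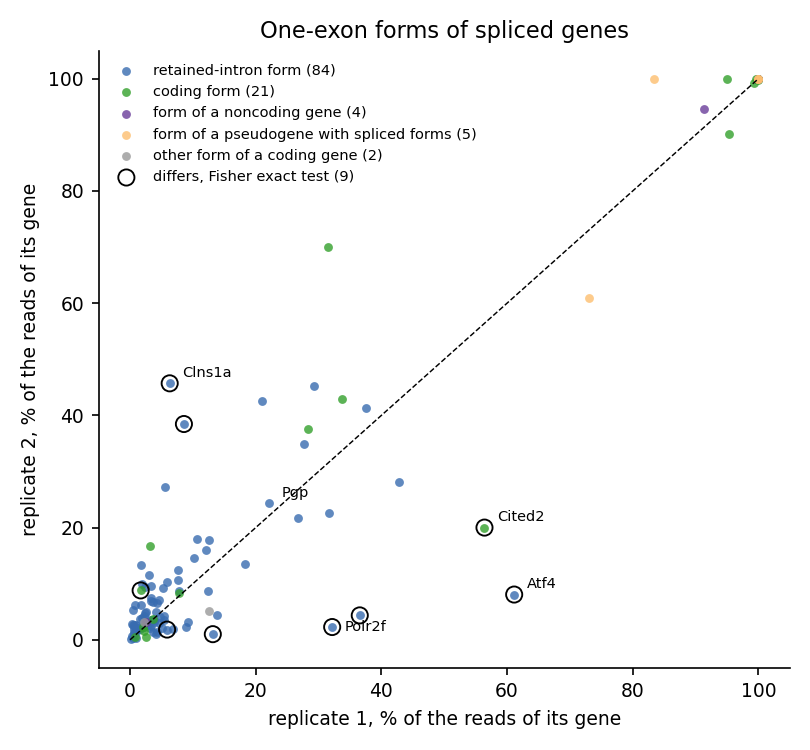
Each point is a one-exon form of a spliced gene with at least 20 reads of the gene in each library, at its percent of the gene's reads in replicate 1 (horizontal) and replicate 2 (vertical), with circles around the 9 that differ in the Fisher exact test and a dashed line at equal shares. Retained-intron forms lie mostly under 10%, and Atf4 falls from 61.1% to 8.06%.

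The share of the gene was compared with a two-sided Fisher's exact test, adjusted over all Known transcripts tested, of which 4.57% of 8091 differed (1.31% with a higher and 3.26% with a lower share in replicate 2). Of the 5785 spliced ones with a read in each library 6.02% differed (1.73% and 4.29%). Among members 10 of 138 differed (7.25%), 3 with a higher (2.17%) and 7 with a lower share (5.07%). Of the 84 retained-intron forms 8.33% differed (2.38% higher and 5.95% lower). Atf4-203 (chr15:80255523-80257541), which keeps both introns shown above of the stress-response factor Atf4, had 129 reads of 211 (61.1%) in replicate 1 and 5 of 62 (8.06%) in replicate 2 (Fisher's exact test, adjusted p = 1.92e-12).

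Of the other retained-intron forms, Fabp4-202 of the fatty acid carrier of adipocytes had 5.89% of 883 reads and 1.82% of 1208 (Fisher's exact test, adjusted p = 5.76e-05). This call was not made when only Known models and models with new splice combinations or new splice sites formed the denominator. It was also not made with replicate 1 thinned to the depth of replicate 2. Fabp4 is itself 1 of the 5 adipocyte markers and had 771 and 2914 CPM over all its models. Cidea was also higher in replicate 2, with 793 and 1606 CPM. The other markers differed less, with 295 and 311 CPM for Adipoq, 1761 and 1992 for Cfd, and 2558 and 2709 for Car3. The part of the Fabp4 level in the share was not tested. Rpl22l1-208 had 13.2% and 1.00% (Fisher's exact test, adjusted p = 0.00603). Clns1a-203 moved the other way, with 7 of 111 reads and 16 of 35, or 6.31% and 45.7% (Fisher's exact test, adjusted p = 2.59e-05). Polr2f-204, Brap-209 and Gm49708-201 completed the retained-intron forms that passed.

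Of 17 coding forms tested 11.8% differed, 1 in each direction (5.88% each). Cited2-203 fell from 56.4% to 20.0% of its gene, which encodes a coactivator partner needed for adrenal development (Fisher's exact test, adjusted p = 0.0387). This call, like those of Brap-209 and Gm49708-201, was not made under any of the 3 other settings of the test. Hnrnpf-210 rose from 1.68% to 8.80% on 11 reads in each library (Fisher's exact test, adjusted p = 0.00616). That call was not made with replicate 1 thinned to the depth of replicate 2. Fndc10-201, of a gene with only 1-exon transcripts in the annotation, was the remaining member that passed.

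A polyadenylation signal, AATAAA or ATTAAA on the transcript's own strand, stood within the last 50 bases of 71.6% of intronless coding transcripts (154 of 215, Wilson interval 65.3% to 77.2%). The shares were 71.7% for long noncoding genes, 66.7% for coding forms and 73.8% for known spliced transcripts with a read in each library. Retained-intron forms had 46.1% (38.3% to 54.0%), against 21.8% of all annotated one-exon retained-intron transcripts. Pseudogenes had 4.88% (2.93% to 8.02%), beside 12.8% of all annotated one-exon transcripts and 33.8% of all annotated transcripts. A match is a description of the annotated end and not of the end of a read. Of the retained-intron forms 58 of 152 ended within 50 bases of the 3′ end of a spliced form.

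**Figure D5:**
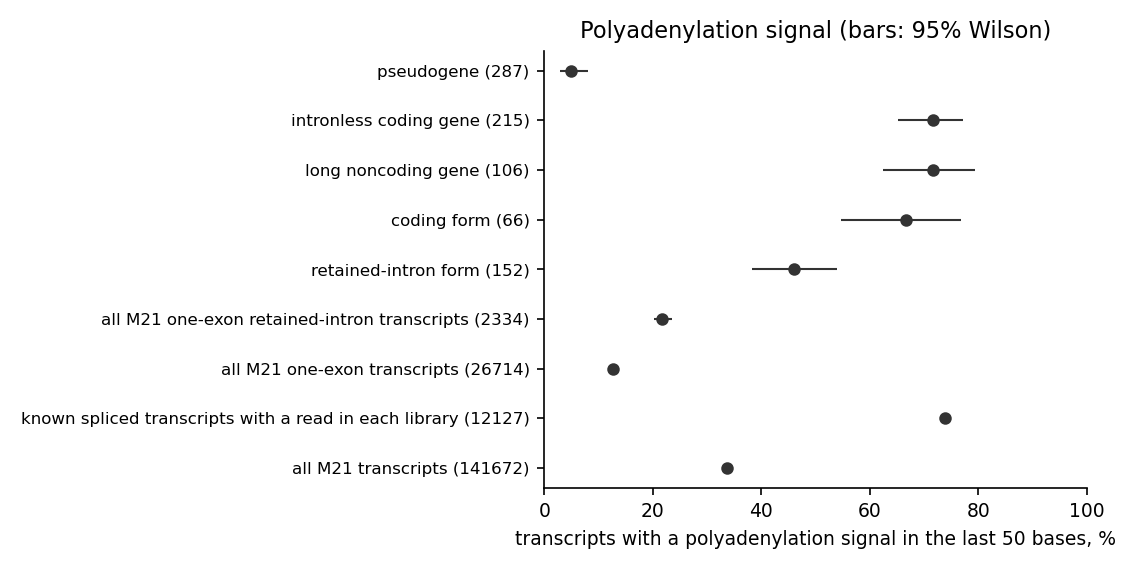
Points give the percent of transcripts with AATAAA or ATTAAA in the last 50 annotated bases, with 95% Wilson intervals as lines and the number of transcripts in parentheses. Intronless coding (71.6%) and long noncoding members (71.7%) lie near known spliced transcripts (73.8%), retained-intron members (46.1%) above all annotated one-exon transcripts of that type (21.8%), and pseudogenes at 4.88%.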

How the data were processed

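The authors deposited, for each library, a table of transcript models with whole-read counts, exon number and length, and the labels' protocols point to the ENCODE long-read pipeline for mouse. Per the file headers and the notes beside them, the build is mm10 and the annotation GENCODE M21. The aligner and its version: not given in the sources used here. Counts as deposited were summed per gene and scaled to CPM over annotated genes. Ratios used TMM factors (edgeR 4.0.16) over 9885 genes with at least 10 reads and a pseudocount of 1 CPM. A replicated count model cannot be fitted between 2 single libraries, so reads were compared by exact binomial tests and shares of a gene by Fisher's exact tests (scipy 1.17.1), with at least 10 reads in total or 20 gene reads in each library, and an adjusted p threshold of 0.05. Both tests set reads against counting error only. Both were tested on simulated data. DESeq2 1.42.0 size factors were an alternative. Transcript sequences came from GENCODE M21, copies were found with BLAST 2.17.0, and microRNAs come from RefSeq. 

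Classes follow the annotation's biotypes. Named transcripts were the 12 with the highest mean CPM in each of the 2 groups (outside the mitochondrial genome), the 3 largest and 3 smallest ratios per group with at least 50 reads that differed by 1 log2 unit or more and passed the test, the 4 widest differences of share in each direction with at least 50 gene reads in each library, and the top 4 of each of 8 gene lists. Members, lists and tests were chosen with earlier results of these data known. Fisher calls outside this rule, family totals and identities were chosen after their values were seen. Some items withheld for evaluation are not reported here.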

Additional observations from a re-analysis of the deposited data

How the results depend on the processing

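The share of annotated-gene reads on members, 4.59% on average, was 4.25% of all reads, 4.32% with 5 reads required in each library, 4.72% with 1 read in either, 4.36% without the mitochondrial genome, 4.26% without the most abundant member, 4.41% without Malat1 and 2.24% without members that have a near-identical copy. It was 4.52% and 4.67% in single libraries. The share of member reads in genes with only 1-exon transcripts, 80.1%, was 93.7% when only Known models with a read set the class, and 73.6% without near-identical copies. It was 75.9% to 84.4% in single libraries. The 924 members became 382 with 5 reads in each library, 600 without near-identical copies and 1185 to 1825 in single libraries, while thinning replicate 1 left 788. The median length, 1217.5 bases, was 1177 weighted by reads and 1217 to 1241 in single libraries.

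Of the members, 84 to 104 differed in reads under the 7 other settings of the exact binomial test. These settings tested 368 to 924 members, and 4.16% to 18.7% of all transcripts tested differed under them. Members whose share of the gene differed numbered 10 of 138 tested. With 50 gene reads in each library 4 of 64 differed, beside 7.71% of all 3904 tested. With Known models, new splice combinations (NIC) and new splice sites (NNC) as the denominator, 5 of 126 differed, beside 0.890% of 6742. With replicate 1 thinned 5 of 116 differed, beside 3.68% of 6600. All of these were among the 10, and Atf4-203 and Rpl22l1-208 were among them in each setting, while Brap-209, Cited2-203 and Gm49708-201 were in none. None of the named log2 ratios that passed the test changed sign, while those of Amigo2-202, Atxn7l3b, H1f0 and Hist1h1c, which did not pass, did so under at least 1 setting. Gm10123 and Myl6-209 lost their call under DESeq2 size factors and TMM over all genes, and Gm14303, Rpl22l1-208, Myl6-209 and Cited2-203 lost theirs when replicate 1 was thinned, and Myl6-209 also with no minimum of reads. Neat1 gained a call under the 3 other scalings. Leaving out Malat1 or near-identical copies, TMM over all genes, and single libraries for the number and length of members were chosen after seeing the data. Depth limits replicate 2, where 3 reads, the limit for a count of 0, equal 7.24 CPM. No paired analysis was possible because both libraries belong to 1 group.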
